A study of Mus musculus with 12 samples.

Results

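CircRNAs with back-splice junction reads in a single group of retinas numbered 548 of the 12510 circRNAs listed for the 12 samples. They were selected on their junction counts. Each had at least 1 read in 2 or 3 samples of exactly 1 group and 0 reads in the 9 samples of the other groups. The selection gave 90 circRNAs restricted to C3H, 45 to rd1, 278 to rd10 and 135 to rd2, from 87, 45, 243 and 129 host genes. Because the junction counts made the selection, those counts are described here without a test. Restricted means detected in that group at this depth, and a count of 0 over 9 samples does not show that a circRNA was missing from them.

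The study sequenced RNA of whole mouse retinas, depleted of ribosomal RNA, from 3 models of retinal degeneration and from wild-type mice, with 3 samples each. The models were taken at the day given as the peak of photoreceptor death. Pde6b rd1 mice lack the rod phosphodiesterase beta subunit and were taken at postnatal day 13. Pde6b rd10 mice carry a point mutation in the same gene and were taken at day 23. The third model, Prph rd2, has a defect in the outer segment protein peripherin 2 and was taken at day 29. The C3H wild-type samples were 1 each of days 13, 23 and 29, so that day varied within that group and not within the models. The study's methods give a C3H background for wild type, rd1 and rd2 and C57Bl6/J for rd10, whereas the labels write C57BL6/J for rd2. For rd10, mutation and strain cannot be told apart, and 1 of the 3 C3H samples shares its day. Mice were used irrespective of sex, and the groups differed in sex-linked genes. Xist was higher than in C3H in all 3 models, and the Y-linked Ddx3y, Eif2s3y, Kdm5d and Uty were lower in rd1, where all 4 were at 0, and in rd2. The part of sex in the results was not tested. The study calls its samples biological replicates without saying that each came from a separate animal, so p-values measure the spread between these samples. In whole retina, fewer cells of a type and less RNA per cell cannot be told apart.

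A circRNA forms when a splice donor joins an acceptor that lies upstream of it, a reaction called back-splicing. The closed ring has no free ends and outlasts most linear transcripts, and neurons and photoreceptors carry many such rings. Reads are assigned to a circRNA solely through the junction between its last and first exon, so most of the ring looks like the linear mRNA of the host gene.

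The sequences below are junctions of members that were among those with the most reads in each group, since this join is what a read must cross to be counted. Each shows 15 bases before and 15 bases after the join, read 5′ to 3′ on the strand of the gene from GRCm38, with the 4 bases on each side of the join in capitals. The first pair, hosted by Tbck (a gene of the FERRY complex, chr3:132751187-132774596, plus strand, 3 coding exons) and Camsap2 (which binds microtubule minus ends, chr1:136273750-136282881, minus strand, 6 coding exons), had reads in C3H alone. Senp6, a SUMO protease (chr9:80087430-80103764, plus strand), and Qser1 (chr2:104765959-104780260, minus strand) had reads in rd1 alone. The rd10 members were Rnf169, a ubiquitin-reading protein of the DNA damage response (chr7:99935162-99955540, minus strand), Wdfy1 (chr1:79717203-79729710, minus strand), Lrrc2 (chr9:110979470-110980963, plus strand) and Cep112, a centrosomal protein (chr11:108664496-108808739, plus strand). Ralgps1 (chr2:33273561-33324703, minus strand) and Stard3nl (chr13:19367744-19376661, minus strand) led among the rd2 members with reads in all 3 samples. The Stard3nl ring includes annotated 5′ UTR, and the others named here lie in coding exons.
Tbck: ccaaagacagaCCTGCTCTacgccatccct
Camsap2: gaacagagtacACAGGAGGaattagaaggt
Senp6: atggccaaggtGGAGCTTTggatagatcag
Qser1: gaccagccattCAAGTTTTagaagctctgc
Rnf169: agcgttcctggCAGGAGTTtatattcagaa
Wdfy1: tcaagggacatGAAGGAATttcacgtttct
Lrrc2: accttaaagaaAGAGGCTGgaagagctaca
Cep112: gaggcgcaggaGCAGGTTAttgctgacatg
Ralgps1: acaaaaacctgGGCTAGTCagatcacattg
Stard3nl: ctgagtctgaaGCAGGTTGcttctcactag

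Samples held between 9819 and 25009 junction reads over all circRNAs and between 17049495 and 24755890 reads counted on genes. Scaled to gene reads (in ppm of these), circRNA junction reads were 734 to 917 in C3H, 576 to 685 in rd1, 771 to 895 in rd2 and 966 to 1050 in rd10. The 15 rod markers, which define the main cell type of this tissue, summed to 7360 to 7650 FPKM in C3H, 3970 to 4060 in rd1, 6070 to 6430 in rd10 and 4880 to 5180 in rd2, with none at 0. In junction reads scaled to gene reads, rd1 was lowest and rd10 highest, with no overlap between either and the rest. The unscaled junction reads overlapped between groups. By junction reads summed over the group, the order was the same as that of the member numbers below, and the part of depth in those numbers was not tested. The deepest model outside rd10 was rd2, with 60396 junction reads against 64016 in rd10.

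rd10 held the most restricted circRNAs, also per junction read. Its 278 members came to 43.4 per 10000 junction reads, compared to 22.4 in rd2, 16.7 in C3H and 12.5 in rd1. In each rd10 sample 234, 191 and 204 members had a read, whereas each rd2 sample had 88, 94 and 101, each C3H sample 58, 71 and 60, and each rd1 sample 32, 32 and 30. The rd10 members took 3.0%, 3.02% and 2.75% of the junction reads of their 3 samples. In rd2 this share was 0.937%, 0.943% and 0.853%, in C3H 0.714%, 0.708% and 0.798%, and in rd1 0.408%, 0.591% and 0.423%. The 3 rd10 samples stood above all 9 others in both measures, but the same junction counts had selected the members. Junction reads summed over the group were 64016 in rd10, 60396 in rd2, 53803 in C3H and 36137 in rd1. The part of this depth was not tested. The order rests on having 3 samples in each group: without rd10 replicate 1, 2 or 3, both remaining rd10 samples had to have a read, and rd10 then had 117, 160 and 147 members against 168, 163 and 162 in rd2. Of the circRNAs found in all 3 samples of a group, members were 4.12% in rd10 and 0.397% to 0.815% in the other groups.

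**Figure D1:**
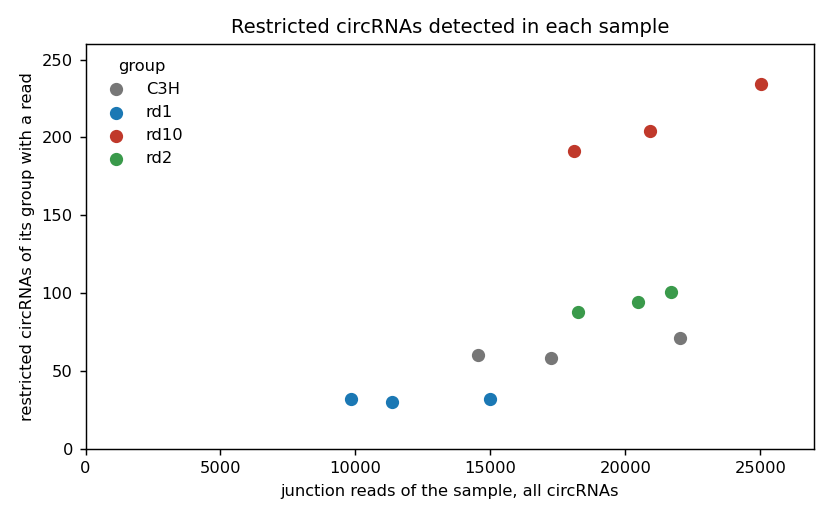
Number of restricted circRNAs of a sample's own group with at least 1 read in it (vertical axis) against the junction reads of that sample over all circRNAs (horizontal axis), 1 point per sample, coloured by group. The 3 rd10 samples hold 191 to 234 members, and the other samples hold at most 101. The same junction counts selected the members, and the part of depth was not tested.

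Most members were seen in few reads. A total of 3 reads over the group, the lowest that any member had, was found for 44 of 90 members in C3H (48.9%), 26 of 45 in rd1 (57.8%), 91 of 278 in rd10 (32.7%) and 70 of 135 in rd2 (51.9%). Members with 10 reads or more numbered 4 in C3H, 0 in rd1, 39 in rd10 and 3 in rd2. Reads in all 3 samples of the group were found for 9 members in C3H, 4 in rd1, 73 in rd10 and 13 in rd2, and the other 81, 41, 205 and 122 had reads in 2 samples. A count of 0 over the 9 other samples allows up to 3 reads there, or 0.168 to 0.2 reads per 10000 depending on the group. The members with the fewest reads stood at 0.469 to 0.83 per 10000 in their own group, which is not far above that limit, while the highest, Rnf169, stood at 13.9. Both limits describe counting error alone, because PCR copies were not marked by molecular identifiers.

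**Figure D2:**
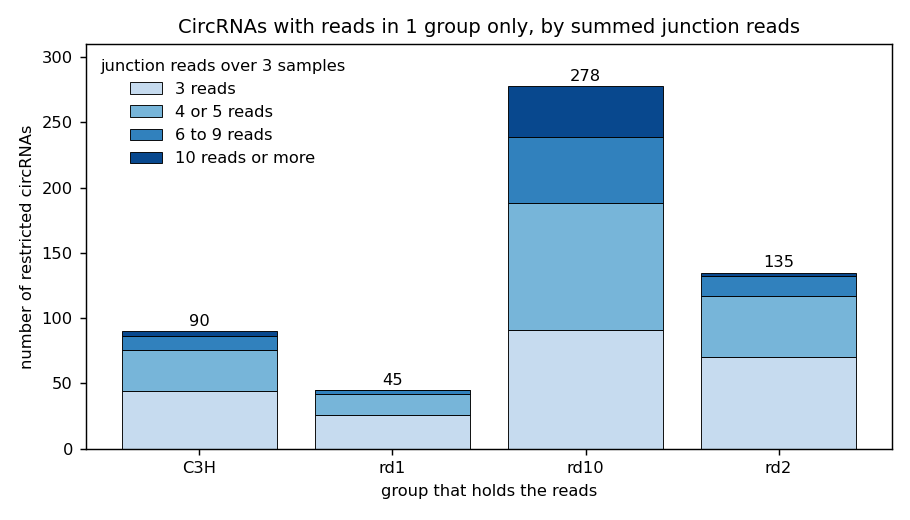
Number of restricted circRNAs in each group, stacked by the junction reads summed over the 3 samples of that group. The rd10 bar of 278 holds 39 circRNAs with 10 reads or more, compared to 4, 0 and 3 in C3H, rd1 and rd2.

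The selection has edges on both sides. Just outside it, 85 circRNAs of C3H, 35 of rd1, 178 of rd10 and 124 of rd2 had reads in at least 2 samples of the group and a single read elsewhere. The largest of these was a Cfap61 circRNA (chr2:146143013-146153917), which had 32, 23 and 24 reads in the rd10 samples and 1 read in the day 23 C3H sample. A further 991, 649, 1337 and 1338 circRNAs had reads in 1 sample alone. Some of these were high, such as a Tcf12 circRNA with 92 reads in the day 13 C3H sample and 0 in the other 11 samples, and a Dmxl2 circRNA with 37 reads in a single rd2 sample. Every listed circRNA had at least 2 reads in some sample, so a circRNA with a single read in each of its samples is not in the table.

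Among the C3H members, the Tbck circRNA had 7, 10 and 6 reads at days 13, 23 and 29. The Camsap2 circRNA, listed in circBase as mmu_circ_0008206, had 5, 9 and 3. For both, the day 23 sample was the highest, and it was also the deepest of the group. Then followed Nf1, a negative regulator of Ras (1, 5 and 4 reads), Robo1, an axon guidance receptor (2, 2 and 3), Arhgap10 (3, 3 and 1) and Dmd, the dystrophin gene (1, 1 and 3). All 6 hosts gave several circRNAs in the table, from 3 for Camsap2 to 55 for Dmd. Tbck gave 7 other circRNAs with 34 reads in C3H, 26 in rd1, 36 in rd10 and 45 in rd2, and both ends of its restricted ring were used by circRNAs seen in other groups. Camsap2 gave 2 other circRNAs with 9, 8, 11 and 16 reads in the same order, and its restricted ring carried 65.4% of the host's junction reads in C3H.

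The rd1 members were the fewest and the lowest. Senp6 had 5, 1 and 2 reads in the 3 rd1 samples, Qser1 2, 1 and 2, Srsf10, a splicing factor, 3, 1 and 1, and Rhot1, a mitochondrial transport GTPase, 1, 1 and 2. These were all 4 of its members with a read in every sample. The Srsf10 ring (chr4:135859202-135861770, plus strand) does not lie on exon ends of the annotation and has AT before and CA after it in place of AG and GT. Senp6 gave 7 other circRNAs with 15, 12, 22 and 24 reads in C3H, rd1, rd10 and rd2.

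The 6 leading rd10 members each had more reads than any member of the other groups. Rnf169 had 26, 32 and 31 reads in the 3 rd10 samples, and it was the sole circRNA of its gene in the table. The Lrrc2 ring had 13, 17 and 15 reads, and a larger Lrrc2 ring had 0, 1 and 3. For Rnf169 and the smaller Lrrc2 ring, replicate 2 was the highest and replicate 1 the lowest. Cep112 was uneven, with 20, 9 and 2 reads. Further members with many reads were Ank2, which encodes an ankyrin (5, 14 and 11 reads), Gnptg (8, 10 and 10), 2210408I21Rik (15, 7 and 6) and Rpgrip1, a protein of the photoreceptor connecting cilium (14, 7 and 6).

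**Figure D3:**
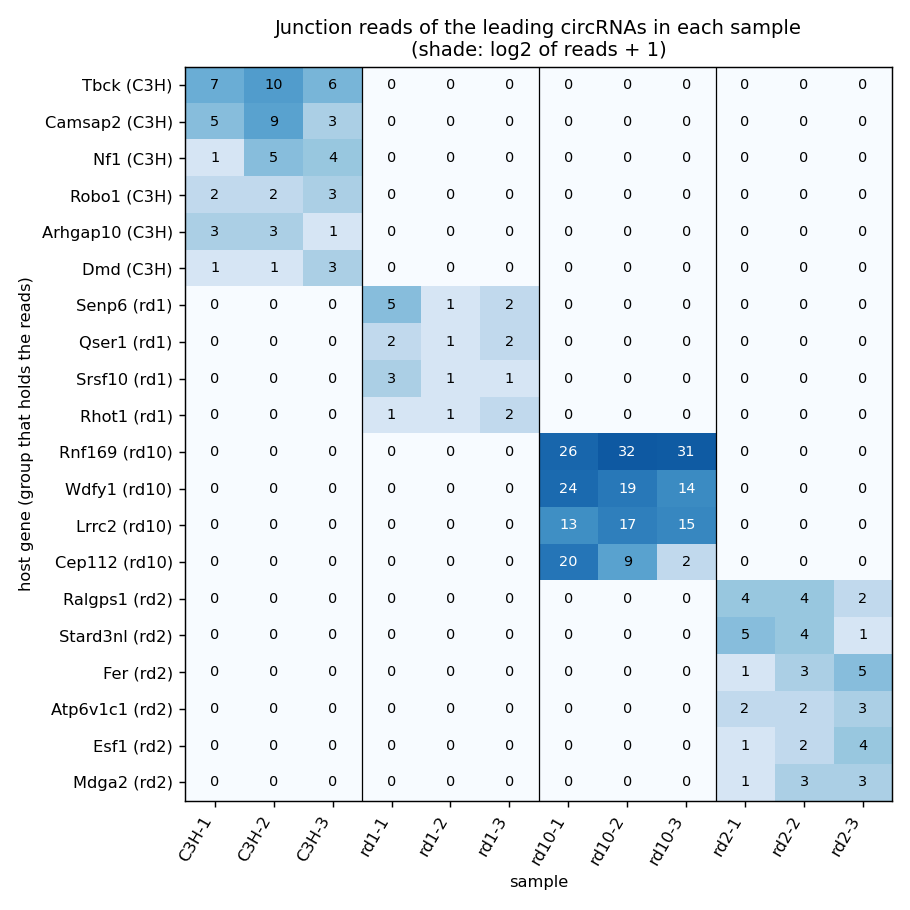
Junction reads of up to 6 leading members of each group (4 for rd10) (rows, by host gene) in all 12 samples (columns), printed in each cell and shaded by log2 of reads + 1. The rd10 block runs from 2 to 32 reads and the other blocks from 1 to 10, and all cells outside a member's group hold 0 by the selection.

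The second highest rd10 member carries a junction that linear RNA can also spell. Wdfy1 encodes a phosphoinositide-binding adaptor, and its 3 restricted rings had 24, 19 and 14 reads (chr1:79717203-79729710), 8, 5 and 9 reads (chr1:79717203-79722268) and 1, 2 and 1 reads (chr1:79724645-79729710). The latter 2 intervals are copies of each other in GRCm38. They are 5066 bases long, all 5066 bases are identical, and their starts lie 7442 bases apart. All 3 rings therefore have the same 30 junction bases, shown above, and a forward splice from the last exon of the upstream copy into the first exon of the downstream copy spells these bases too. Reads across this junction thus cannot be assigned to 1 of the 3 rings, nor told apart from linear Wdfy1 RNA that contains both copies. GRCm38 is the genome of the C57BL/6J strain. The 0 reads of the 9 samples outside rd10, the rd2 samples labelled C57BL6/J among them, are set by the selection. The part of strain was not tested. The same search over all members, in GENCODE vM21 transcripts, in forward joins of annotated exons of the host and in the genome, found these 3 of 548 members (0.547%), and 44 of all 12510 circRNAs (0.352%). Without them rd10 has 275 members.

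The rd2 members were more numerous than those of C3H and rd1. They had a median of 3 reads, as in rd1, while C3H members had 4. Ralgps1, a Ras-family exchange factor, had 4, 4 and 2 reads in the 3 rd2 samples and Stard3nl, an endosomal protein at contacts with the endoplasmic reticulum, had 5, 4 and 1. Fer, a tyrosine kinase, had 1, 3 and 5, Atp6v1c1, a subunit of the proton pump of acidic organelles, 2, 2 and 3, Esf1 1, 2 and 4, and Mdga2, a synaptic adhesion molecule, 1, 3 and 3. No rd2 sample was the highest throughout. The Stard3nl ring was the sole circRNA of its gene, whereas Ralgps1 gave 7 others with 83, 41, 117 and 68 reads in C3H, rd1, rd10 and rd2. An Ncoa1 ring had 0, 6 and 5 reads, the highest total in rd2 (11), but missed a read in 1 sample.

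The host genes of members, like those of other circRNAs of the table, mostly gave further rings. Other rings of the same host were listed for 84.7% of members and 86.6% of all rows. Leaving out rings restricted to any group, other rings had reads in at least 1 other group for 75 of 87 C3H hosts (86.2%), 32 of 45 rd1 hosts (71.1%), 187 of 243 rd10 hosts (77%) and 106 of 129 rd2 hosts (82.2%). The 1310 such rings of the rd10 hosts had 1440 ± 6.52 reads per 10000 junction reads in rd10 (SD, n = 3), compared to 1490 ± 18 in C3H, 1470 ± 39 in rd1 and 1500 ± 24.1 in rd2. The 861 rings of the rd2 hosts had 736 ± 15.3 in rd2 and 681 ± 49.2, 630 ± 16.3 and 695 ± 26.5 in C3H, rd1 and rd10. For the C3H hosts the 676 rings were at 568 ± 22.9 in C3H and 533 ± 27.5, 610 ± 25.2 and 631 ± 62.8 in rd1, rd10 and rd2. The 157 rings of the rd1 hosts were at 96.5 ± 18.9 in rd1 and 92.9 ± 11.1, 110 ± 7.79 and 92.1 ± 14.4 in C3H, rd10 and rd2. Taking the members out bears on these sums, which are therefore given as descriptions with no test.

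Several genes gave more than 1 member. In rd10, 27 hosts gave at least 2, with at most 4 from a gene, as in Vwa8 and Ndst3. The Vwa8 members had 6, 2 and 8 reads, 6, 2 and 1, 1, 2 and 0, and 0, 1 and 2. They took 46.3% of the junction reads of the gene in rd10, and its 23 other rings had 27 reads in C3H, 38 in rd1, 36 in rd10 and 47 in rd2. Ndst3, a heparan sulfate sulfotransferase, had 8, 2 and 3 reads on its highest member. Its 4 members took 57.8% of its rd10 junction reads, and its 2 other rings had 2 reads in C3H, 2 in rd1, 19 in rd10 and 6 in rd2. In C3H, Nbea, a vesicle traffic protein, gave 3 members and Mbd5 2. In rd2, 6 hosts gave 2, among them Diaph3, Arhgef28, Ddb1 and Abca4. In all, 31 genes hosted members of more than 1 group, and Kdm4c and Usp34 did so in 3 groups each. By the selection, such genes had a different ring restricted to each group.

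Genes of the photoreceptor cilium and of inherited retinal disease were among the hosts in 3 groups. Of 40 genes on that list, 31 gave 289 circRNAs in all, and 5.19% of these were members, beside 4.38% of all rows. In C3H, 3 of these were members (Prom1 with 2, 2 and 0 reads, Cerkl with 2, 0 and 1, Adgrv1 with 0, 1 and 2). In rd10 there were 9, led by Rpgrip1 with 27 reads, with others from Adgrv1, Bbs9, Myo7a and Nphp4. In rd2 there were 3, of which the retinal lipid transporter Abca4 gave 2 (0, 3 and 2 reads, and 2, 0 and 1). Chromatin and transcription genes gave 5 members in C3H, 0 in rd1, 7 in rd10 and 5 in rd2, out of 385 circRNAs (4.42%). In C3H these included Kdm5b, a histone demethylase (2, 2 and 0), in rd10 Rere (2, 2 and 5, and 4, 0 and 3) and Baz1b (0, 4 and 1), and in rd2 Ncoa1 and Chd9 (3, 0 and 2). Synapse and ion channel genes gave 248 circRNAs, of which 5 were members (2.02%), a share below that of all rows. The members from these genes included Nrxn2 in rd1 (1, 2 and 0), Cacna1d in rd10 (2, 0 and 7), and Rims2 (2, 1 and 0) and Scn8a (2, 0 and 1) in rd2.

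Members made up 3.78% of the 238 circRNAs from well-known circRNA hosts, close to the 4.38% of all rows that are members. They were 1 member in C3H (Ptk2, with 0, 1 and 2 reads), 0 in rd1, 7 in rd10 and 1 in rd2 (Rims2). Pde4d, a cAMP phosphodiesterase, was the highest of the rd10 set with 4, 2 and 4 reads. From the genes that act in circRNA formation and decay, Dhx9, a helicase that unwinds inverted repeats beside exons, gave 1 member in rd10 (3, 1 and 0 reads). It was the sole member among the 29 circRNAs of that list (3.45%). In the gene counts of rd10, 14 of the 26 tested genes of that list had p under 0.05 before adjustment in edgeR, where 58.9% of all genes did. With the 1.5-fold limit 0 of the 26 were called, where 15.9% of all genes were called higher and 8.08% lower. The median log2 fold change of the list was 0.01 beside 0 over all genes. Marker lists of rods, cones, bipolar, amacrine, ganglion and horizontal cells, Mueller glia, microglia, pigment epithelium, vessels and lens hosted 0 members, but these 11 lists gave 63 circRNAs in all, a number too small to set this apart from the 4.38% of all rows. The sex-linked list with its 18 circRNAs also had 0 members. The 18 microglia and macrophage markers gave 0 circRNAs at all, although 17 of 18 were called higher in rd10, beside 15.9% of all genes.

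By position and structure, members pooled over the 4 groups were close to all circRNAs of the table. AG before and GT after the ring stood at 96.7% of members and 95.5% of all rows, and both ends lay on annotated exon ends of the host for 95.8% and 94.6%. Among the rd1 members alone, each of these shares was lower, at 40 of 45 (88.9%). The median ring held 5 exons among all members and among all rows, and had a spliced length of 695 bases against 679. The genomic span had a median of 12422.5 bases against 11392, and 13.1% of members spanned over 50 kb against 10.7%. Of the 73 rd10 members with reads in all 3 samples, 18 (24.7%) spanned over 50 kb. Repeat-masked sequence covered a median of 20% of the 300 bases on each side of members and 19.8% for all rows. The letters ACTAAC, searched on the strand of the gene as a motif of the splicing factor Quaking, were found in these windows for 10.2% of members and 9.22% of all rows. At least 1 end was shared with a circRNA seen in another group for 60% of members. For all rows the share was 63.9%, by a looser count, since rows that are not members took circRNAs with reads in any sample. These values are descriptions, since the set was not drawn at random.

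The shares of members listed in circBase were 26.7% in C3H, 31.1% in rd1, 38.5% in rd10 and 20% in rd2, beside 37.1% of all rows. Shares differ with abundance, being 32.5% among circRNAs of 3 to 10 reads that were not restricted and 65.5% among all circRNAs found in at least 2 rd10 samples. Within 15 Mb of the mutated gene there were 4 of 278 rd10 members (1.44%, hosts Anapc7, Gm42669, Mtf2 and Ttc28), where Pde6b has 1.35% of all rows around it. For rd1 this number was 0 of 45, and for rd2 2 of 135 lay near Prph2 (1.48%, hosts Polh and Rpl7l1) beside 0.639% of all rows.

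The host genes were then compared between the model and C3H in the gene counts, which the selection did not read. Calls follow the study's rule, a 1.5-fold difference or more in either direction together with p under 0.05 before adjustment, here from the quasi-likelihood test of edgeR. Of the 240 rd10 hosts tested, 18 were higher (7.5%) and 10 lower (4.17%), while of all 18704 genes tested in rd10 15.9% were called higher and 8.08% lower. Both shares of rd10 hosts were below those of all genes, a difference that was not tested. These hosts had a median of 10.4 FPKM in rd10 beside 4.25 for all genes tested, and the part of level was not tested. Of the 240 hosts, 212 were not called, and their restricted rings had reads in rd10 alone by the selection. In rd1, 1 of 45 hosts was called higher and 1 lower, against 8.98% and 6.03% of all genes. In rd2, 0 of 129 hosts were called in either direction, where 2.68% of all genes were higher and 1.89% lower. For C3H against the mean of the 3 models, 0 of 87 hosts were called, where 3.33% of all genes were higher and 7.64% lower. At an unadjusted p under 0.05 with no limit on the fold, 30 rd1 hosts and 162 rd10 hosts (66.7% and 67.5%) passed edgeR's test. Of all genes, 49.7% and 58.9% did. In rd2 and C3H, 38 and 45 hosts passed (29.5% and 51.7%), beside 23.8% and 38.9% of all genes. Of the 129 rd2 and 87 C3H hosts, 37 and 39 passed in DESeq2, where 18.8% and 34.3% of all genes did. With the 1.5-fold limit DESeq2 called 0 of either, and its share of calls over all genes was not taken.

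Most changes in host genes were small in all 4 comparisons, although rd10 hosts ran from -1.7 to 3.35 on the log2 scale. The median log2 fold change was 0.09 for rd1 hosts, -0.01 for rd10 hosts, 0.05 for rd2 hosts and 0.01 for C3H hosts, beside -0.01, 0, 0 and 0.01 for all genes tested. Within 0.25 of 0 on the log2 scale lay 82.2%, 60.4%, 90.7% and 92% of these hosts, compared to 59%, 48.2%, 73.6% and 66.6% of all genes. Host genes were expressed above the median gene, with a median of 16.6 FPKM in rd1, 10.4 in rd10, 11.2 in rd2 and 14 in C3H, where all tested genes had 4.36, 4.25, 4.06 and 3.51. FPKM is a level per length and per reads counted on genes.

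**Figure D4:**
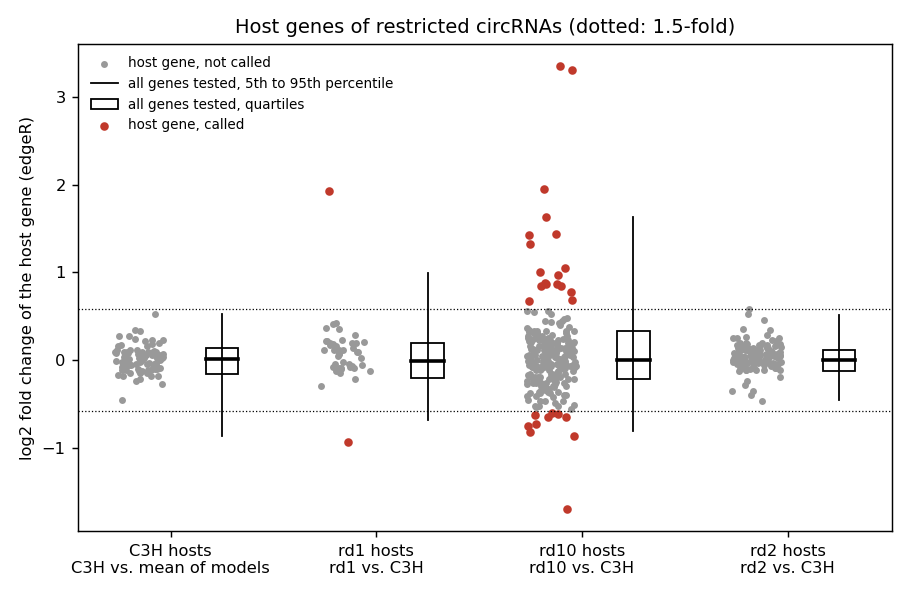
Log2 fold change of the host genes of restricted circRNAs in the gene counts (points, called ones in red) beside the quartiles and the 5th to 95th percentile of all genes tested, for the comparison named under each group. The dotted lines mark the 1.5-fold limit. Called hosts number 28 in rd10, 2 in rd1 and 0 in rd2 and C3H.

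Lrrc2 was the host with the largest rise. The gene, which encodes a leucine-rich repeat protein, was at 29.7, 27.9 and 30.5 FPKM in the rd10 samples and at 2.68, 2.75 and 2.87 in C3H, with 2.11 to 3.14 in rd1 and rd2. The rd10 samples lay far above all 9 others, and the log2 fold change was 3.35 ± 0.06 (SE, edgeR adjusted p = 4.2e-20). Its 2 restricted rings thus belong to a gene that was higher in the same samples. Adgre1, which encodes the macrophage and microglia protein F4/80, rose by 3.31 ± 0.14 (SE, edgeR adjusted p = 6.3e-14) and gave 1 member of 5 reads (1, 0 and 4). Beside it, the marker list of microglia and macrophages had a median log2 fold change of 2.27 in rd10 and a summed level of 260 to 273 FPKM there, compared to 57.2 to 64.5 in the other groups, with none of its 18 genes at 0. What that shift contributes to this ring was not tested.

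The other hosts that rose in rd10 were Bub1b, a mitotic checkpoint kinase (1.95 on the log2 scale), Sbno2 (1.63), Drc3 (1.44), Myo7a, the myosin mutated in a form of Usher syndrome (1.43), Agtpbp1, an enzyme that shortens tubulin glutamate chains (1.32), Abca1, a cholesterol exporter (1.05), Cdc14b (1), Specc1 (0.97), Cacna2d3 (0.88), Nxpe4 and Diaph3 (0.87 each), Bbs7, a cilium transport protein, and Asah2 (0.84 each), Ulk4 (0.78), Wrn (0.68) and Smyd3 (0.67). Bub1b gave 2 rings, with 4, 2 and 2 reads and with 4, 0 and 2. Agtpbp1 also gave 2, each with 0, 3 and 1. Apart from Lrrc2, no host that rose gave a ring of more than 10 reads.

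Of the 10 hosts that fell in rd10, Wdfy1 fell the most. The gene was at 4.69, 4.26 and 4.57 FPKM in rd10, at 14.3, 13.5 and 14.5 in C3H, and at 13.4 to 15.5 in rd1 and rd2. All rd10 samples were below all others, with a log2 fold change of -1.70 ± 0.06 (SE, edgeR adjusted p = 4.93e-16). The reads of its junction were in rd10 alone by the selection. The others were Cdan1 (-0.86), Mdm1, a microtubule protein of photoreceptors (-0.82), D630045J12Rik (-0.75), Fam184b (-0.73), Zdhhc2 and the transducin subunit Gnb1 (-0.65 each), Usp12 (-0.63), Zfand4 (-0.61) and Bbs9, another cilium transport protein (-0.60). Mdm1 and Fam184b had 4, 3 and 3 reads and 5, 2 and 5 reads on their restricted rings, each the sole circRNA of its gene in the table. For Mdm1 and Fam184b the ring was seen in the group where the gene count was lower.

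For Rnf169 and Cep112 the host was higher in rd10 but not called. Rnf169 was at 10.6, 10.9 and 10.5 FPKM in rd10 and 7.86, 8.42 and 8.18 in C3H, and differed by 0.33 ± 0.05 on the log2 scale (SE, edgeR adjusted p = 5.68e-06). All rd10 samples of Rnf169 were above all C3H samples, but the size was under the 1.5-fold limit. Cep112 was at 2.95, 2.72 and 2.93 FPKM in rd10 and 1.97, 1.87 and 1.78 in C3H. In rd1, where its restricted ring had 0 reads by the selection, the gene was at 2.54 to 2.90. Cep112 reached 0.56 ± 0.08 (SE, edgeR adjusted p = 7.16e-06), just under the limit.

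**Figure D5:**
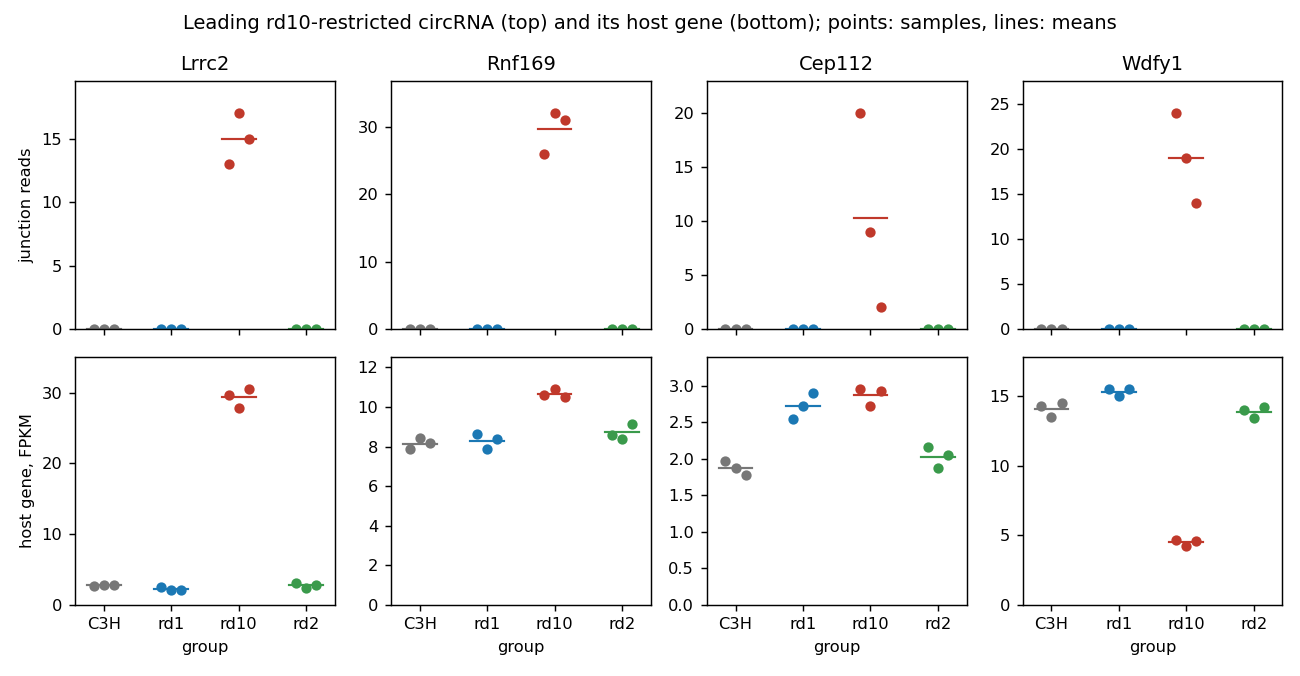
Junction reads of the leading restricted circRNA (top) and FPKM of its host gene (bottom) in every sample for Lrrc2, Rnf169, Cep112 and Wdfy1, with lines at the group means. Lrrc2 is higher in rd10 in both rows. In the lower row, Rnf169 and Cep112 are above C3H by 0.33 and 0.56 on the log2 scale of edgeR, and Wdfy1 is lower in rd10. The reads in the top row are in rd10 alone by the selection.

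In rd1 the called hosts were 2610307P16Rik, a noncoding gene (1.93 ± 0.24 on the log2 scale, SE, edgeR adjusted p = 4.63e-07), with a ring of 2, 0 and 2 reads, and Mylk, a myosin kinase, which was lower (-0.93 ± 0.03, SE, edgeR adjusted p = 2.13e-17) and had a ring of 1, 0 and 3. Mylk was at 16.4 to 16.8 FPKM in rd1 and 29.8 to 30.2 in C3H. It was also below C3H in rd10 (15.5 to 16.5) and rd2 (19.0 to 20.6), where its restricted ring had 0 reads by the selection. In rd2 the host closest to the limit was Dnah9, a ciliary dynein, at 0.58 ± 0.05 (SE, edgeR adjusted p = 1.81e-06), with a ring of 0, 2 and 1 reads. Among the leading rd2 members, log2 fold changes were 0.03 for Ralgps1, 0 for Stard3nl, 0.07 for Fer, 0.16 for Atp6v1c1, 0.15 for Esf1 and 0.09 for Mdga2, none with an edgeR adjusted p under 0.05. Among the leading C3H members, the hosts Tbck (0.08), Camsap2 (-0.04), Robo1 (0.01) and Dmd (0.07) had an edgeR adjusted p above 0.05 against the mean of the models. Nf1 differed by -0.15 on the log2 scale (C3H minus models) and Arhgap10 by 0.12, both with an edgeR adjusted p under 0.05 and under the 1.5-fold limit.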

How the data were processed

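Retinal RNA of 12 samples was used, grouped by their labels. The authors aligned reads to GRCm38 and deposited gene counts from HTSeq 0.11.2, without normalization, and FPKM, which divides these by gene length and reads counted on genes. For circRNAs the authors ran TopHat2 2.1.1 and CIRCexplorer and deposited counts of junction reads, discarding candidates under 2 junction reads. The deposited circRNA TPM scales these counts to the sample's total and was used solely to repeat the selection. Starts in the circRNA table count from 0 and are printed from 1.

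Host genes were matched by symbol (470 of 471, the exception being Gm20388), and tested with edgeR 4.0.16 in R 4.3.3 (TMM, filterByExpr, quasi-likelihood test, Benjamini-Hochberg adjustment over all genes tested), each model with C3H on its own and C3H against the mean of the models in a fit of 12 samples. Alternatives used DESeq2 1.42.0 and limma. The steps were tested on simulated data. Exons came from GENCODE vM21 and sequence from RefSeq's GRCm38.p6. The 30 junction bases were searched exactly, on both strands of the genome. Members and gene lists were chosen with earlier results of these data known. For each group the 6 members with the most reads among those seen in all 3 samples are named, then up to 3 hosts with the most members, up to 3 members per gene list and group, and called hosts. Others, such as those at the edges of the selection, Ncoa1 and those after the sixth in rd10, were chosen after their values were seen. Some members that this rule names are not reported here. Gene counts sum to between 17049495 and 24755890 per sample. The authors' own annotation columns hold circBase names and host genes.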

Additional observations from a re-analysis of the deposited data

How the results depend on the processing

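The number of restricted circRNAs depends on the rule. With a read asked in all 3 samples, C3H, rd1, rd10 and rd2 had 9, 4, 73 and 13 members. With at least 2 reads asked in 2 or 3 samples they had 24, 9, 121 and 38, and with 1 read allowed over the 9 other samples 175, 80, 456 and 259. Leaving out 1 replicate gave 28 to 119 in C3H, 17 to 61 in rd1, 117 to 337 in rd10 and 47 to 170 in rd2. The lower end comes from leaving out a sample of the group itself, for which both remaining samples must then have a read. Without rd10 replicate 1, 2 or 3, rd10 had 117, 160 and 147 members and rd2 had 168, 163 and 162, so that rd2 then had the most, while rd10 had the most under the other alternatives. TPM above 0 gave the same members as counts. With AG and GT asked at the ends, an alternative added after seeing the data, 90, 40, 272 and 128 remained, and without the Wdfy1 junctions, also added later, rd10 had 275.

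The replicate numbers of the labels were not taken as pairs in the main test. In C3H they follow the postnatal day, while each model was taken at a single day. The labels thus give the number no meaning shared between groups, which limits what the correlations and the block below can show. Deviations from the group means correlated between 0.057 and 0.126 for same-numbered rd1 and C3H samples, above the -0.076 to 0.023 of differently numbered ones. For rd10, same-numbered samples gave -0.042 to -0.001 and differently numbered ones -0.029 to 0.051. For rd2 the ranges were -0.071 to 0.067 and -0.128 to 0.132. With the replicate block, called hosts numbered 2 in rd1, 28 in rd10, 0 in rd2 and 0 in C3H, as without it. Leaving out 1 replicate gave 2 called hosts in rd1, 26 to 30 in rd10, 0 to 1 in rd2 and 0 in C3H. In rd2, 1 host was called with no filter on low counts, with limma on log2(FPKM + 0.1), without C3H replicate 1 and without rd2 replicate 2. With limma on log2(FPKM + 1) rd10 had 19. Cep112 passed the 1.5-fold limit at 0.59, 0.59 and 0.60 with limma on log2(FPKM + 0.1), without C3H replicate 1 and without rd10 replicate 2. Hosts near 0 changed sign: Baz1b to 0.01 with limma at either pseudocount, Rims2 to -0.01 without rd2 replicate 1 (leaving out 1 replicate gave -0.01 to 0.04), Chd9 to 0.02 without rd2 replicate 2 (-0.07 to 0.02), and Robo1 to -0.02 with no filter, -0.04 and -0.05 with limma on log2(FPKM + 1) and log2(FPKM + 0.1), -0.01 without C3H replicate 2 and -0.02 without rd2 replicate 2 (-0.02 to 0.03). Of 765 values of 50 named hosts under alternatives, 753 kept direction and side of the threshold. The depth of 9819 to 25009 junction reads limits all counts of members, since most rest on 3 to 5 reads.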
